A study of Mus musculus with 72 samples.

Results

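Glucose is broken down in muscle by glycolysis and stored as glycogen, and the transcripts of 35 enzymes and regulators of these pathways were examined among the 55401 genes measured by RNA-Seq in WT and *Bmal1*-KO mice. The members were chosen by gene symbol: 18 genes of glycolysis, from the hexokinases *Hk1* and *Hk2* to the lactate dehydrogenases *Ldha* and *Ldhb*; 14 genes of glycogen synthesis, breakdown, and regulation, with which the muscle fructose-bisphosphatase *Fbp2* was listed; and the 3 bifunctional enzymes *Pfkfb1*, *Pfkfb3*, and *Pfkfb4*, which set the level of the allosteric activator of phosphofructokinase. In gastrocnemius, 34 of the 35 members had a mean normalized count above 5 and were tested among 16199 genes, and *Aldoc*, a brain-type aldolase, fell under that limit.

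Glycolysis converts glucose to pyruvate in the cytosol, with phosphofructokinase as its main committed step, and lactate dehydrogenase interconverts pyruvate and lactate. Muscle glycogen is built by glycogen synthase and the branching enzyme on a glycogenin primer, and phosphorylase, switched on by phosphorylase kinase, releases it again. Protein phosphatase regulatory subunits such as the product of *Ppp1r3a* bring the phosphatase to glycogen, where it favors synthesis. Fast glycolytic fibers, which make up most of the mouse gastrocnemius, carry muscle-type isoforms of many of these enzymes.

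The libraries came from male mice. At 10 weeks of age, gastrocnemius gave 6 WT libraries, 6 *Bmal1*-KO libraries, and 7 libraries of the KO+AAV group, and at 40 weeks 5 libraries per group, all at ZT1, that is, just after lights on. *Bmal1*-KO mice lacked the clock factor BMAL1 in the whole body and were bred from heterozygous parents. KO+AAV mice were *Bmal1*-KO mice that received AAV9-CK6-*Bmal1*-HA as pups at postnatal day 5. The paper describes the CK6 promoter as muscle specific and constitutive, and its activity over the day was not measured here. At 10 weeks, 3 WT, 3 KO, and 4 KO+AAV libraries were sequenced at ICBR and 3 per group at Novogene, and the 40-week gastrocnemius libraries were sequenced at Novogene. A separate experiment compared 3 gastrocnemius libraries of *Bmal1*-KO mice that carried AAV9-CK6-GFP with 3 of control *Bmal1*-KO mice at 10 weeks, and liver, heart, white fat, and lung gave 4 KO and 4 KO+AAV libraries each at 40 weeks. Levels are given as normalized counts, that is, reads divided by the size factor of the library, and a gene was called where its adjusted *P* value was under 0.05. Samples were bulk tissue, so fewer cells or fibers of a type and less RNA per cell cannot be told apart.

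Gastrocnemius libraries of the main experiment held 9325122 to 41733282 reads on genes, of which the members took 3.01% to 6.07%. *Arntl*, the gene for BMAL1, was lower in the 10-week KO libraries (196 to 296 normalized counts) than in the WT libraries (402 to 634). At 40 weeks the library labelled KO replicate 2 had 1039 *Arntl* counts, above all WT libraries (480 to 608), while the BMAL1 target *Per3* stood at 3.58 counts in it, and the other KO libraries had 308 to 395 *Arntl* counts. KO+AAV libraries had 169 to 281 *Arntl* counts at 10 weeks and 268 to 359 at 40 weeks, within or below the range of KO at each age. *Per3* was at 95.9 to 270.1 counts in the 12 KO+AAV libraries, above the 3.58 to 40.8 counts of the 11 KO libraries. KO replicate 3 at 40 weeks also stood apart, with the highest summed count of 8 slow and type IIA fiber genes of any gastrocnemius library (264039). For WT versus KO at 40 weeks and for age in KO, calls that were lost without either library are named. Shares of isoenzymes and values of KO+AAV against KO at 40 weeks are given with both libraries included.

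CLOCK and BMAL1 bind E-box elements (CACGTG), so the promoters of the members were searched for this motif, which reads the same on both strands, in windows from 250 bases before to 50 bases after the RefSeq transcription start (GRCm38.p6). Some genes had windows at several starts, and a gene was counted where any of its windows held the motif. All 35 members had a window, and 6 of them (17.1%) held an E-box: *Fbp2*, *Ldha*, *Pfkfb3*, *Pfkm*, *Ppp1r3c*, and *Gyg*. Among all 27025 genes with windows, 8.09% held one. The noncanonical form CACGTT or AACGTG stood in 4 members (11.4%), *Hk1*, *Pfkm*, *Ppp1r3c*, and *Pygb*, and in 5.44% of all genes. The 4 sequences below belong to the members with an E-box that were also called in a comparison of genotypes, with the E-box in capitals. Each line runs 5′ to 3′ on the strand of the gene and covers 220 bases, ending 31 bases before the start. The *Fbp2* window lies on the minus strand at chr13:62858431-62858650, upstream of the first exon, with its E-box 42 bases before the start. The *Ldha* window lies on the plus strand at chr7:46845554-46845773, in an intron of the longest *Ldha* transcript, with E-boxes 145 and 48 bases before the start. The *Pfkfb3* window lies on the minus strand at chr2:11502121-11502340, within the span of longer *Pfkfb3* transcripts, with its E-box 53 bases before the start. The *Pfkm* window shown lies on the plus strand at chr15:98092339-98092558, within the gene *Senp1* of the other strand. Its E-box lies 136 bases before the start used for this window. *Pfkm* also had a window at a start further downstream, at chr15:98108221-98108520. That window held the noncanonical form, 244 bases before its start, and no CACGTG. Which of these starts is used in muscle was not tested. A match describes the letters in the window, and binding was not measured here.
Fbp2: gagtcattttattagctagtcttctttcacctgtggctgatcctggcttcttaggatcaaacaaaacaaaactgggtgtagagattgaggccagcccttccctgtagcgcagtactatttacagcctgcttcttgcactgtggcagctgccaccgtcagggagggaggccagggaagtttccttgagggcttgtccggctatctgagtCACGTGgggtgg
Ldha: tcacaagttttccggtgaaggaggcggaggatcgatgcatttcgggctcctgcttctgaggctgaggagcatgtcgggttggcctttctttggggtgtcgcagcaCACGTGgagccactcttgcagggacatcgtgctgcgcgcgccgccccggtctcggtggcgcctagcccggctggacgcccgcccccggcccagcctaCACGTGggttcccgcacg
Pfkfb3: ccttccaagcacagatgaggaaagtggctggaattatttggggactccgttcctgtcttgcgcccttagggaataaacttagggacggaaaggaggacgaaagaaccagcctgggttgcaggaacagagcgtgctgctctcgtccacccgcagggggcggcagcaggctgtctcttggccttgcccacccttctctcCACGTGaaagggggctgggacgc
Pfkm: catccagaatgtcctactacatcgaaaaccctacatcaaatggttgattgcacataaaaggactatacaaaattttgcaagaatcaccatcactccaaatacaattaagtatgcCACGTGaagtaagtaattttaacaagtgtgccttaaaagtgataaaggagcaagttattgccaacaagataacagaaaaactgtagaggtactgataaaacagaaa

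Per length, the members spanned a wide range in WT muscle at 10 weeks. *Aldoa*, the muscle aldolase, had a median of 4976 RPKM, that is, reads per kilobase of exon scaled to library depth, followed by the enolase *Eno3* (3231 RPKM), the muscle phosphorylase *Pygm* (2317 RPKM), the phosphoglycerate mutase *Pgam2* (1871 RPKM), and the muscle phosphofructokinase *Pfkm* (1122 RPKM). The other isoforms of these steps were far lower, with 14.8 RPKM for *Eno1*, 4.79 for *Pgam1*, 1.16 for *Pfkl*, 0.620 for *Pfkp*, 1.14 for *Pygb*, and 0.171 for *Pygl*. Among glycogen genes, *Ugp2*, which makes UDP-glucose, had 212 RPKM, the phosphatase subunit *Ppp1r3c* 200.5, and the phosphorylase kinase subunit *Phka1* 179.6. The branching enzyme *Gbe1* was lower than these. *Pfkfb3* was the highest of the PFKFB genes in WT muscle, at 38.7 RPKM against 14.6 for *Pfkfb4* and 11.2 for *Pfkfb1*.

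The comparison of WT with KO asked which members differed between these genotypes. At 10 weeks, 4 of 34 members were called, all higher in WT: *Pfkm* and *Hk2* of glycolysis and *Fbp2* and *Phka1* of the glycogen genes. Of all 16199 genes, 8% were called, 4.26% higher and 3.74% lower in WT. In none of the 4 did the WT and KO libraries overlap, as was the case for 6.06% of all genes, 3.45% of all genes with WT higher. At 40 weeks, 10 members were called against 23.5% of all genes, 7 higher in WT (*Pfkm*, *Hk2*, *Ldha*, *Ppp1r3a*, *Phka1*, *Fbp2*, and *Phkg1*; 12% of all genes) and 3 lower (*Gbe1*, *Gys1*, and *Ldhb*; 11.5% of all genes). Groups did not overlap for 6 of the 34 members and 13.6% of all genes at 40 weeks. The median log2 fold change of WT over KO was 0.08 over the 17 tested glycolysis members, 0.21 over the 14 glycogen members, and 0.15 over the 3 PFKFB members at 10 weeks, and 0.16, 0.46, and 0.05 at 40 weeks, beside -0.01 and 0.01 over all genes.

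*Pfkm* (chromosome 15, 98092589 to 98132451), the muscle isoform of phosphofructokinase, had 57632 to 77633 (median 59864) normalized counts in the 6 WT libraries and 26114 to 38680.0 (median 37105) in the 6 KO libraries at 10 weeks. Every WT library lay above every KO library, and the level was 1.82-fold higher in WT (log2 fold change 0.87 ± 0.15, adjusted *P* = 0.000145; 0.88 among the ICBR libraries and 0.86 among the Novogene libraries). At 40 weeks the WT libraries had 65768, 53111, 60195, 68264, and 56199 counts and the KO libraries 36909.7, 39073, 27936, 35465, and 34395. The groups were again apart, by 1.75-fold (log2 fold change 0.81 ± 0.16, adjusted *P* = 0.000495). Exons of *Pfkm* share 10.2% of their bases with the predicted gene *Gm26513* on the same strand and 0.539% with *Senp1* on the other strand. *Hk2* (chromosome 6, 82725025 to 82774454), the insulin-responsive hexokinase of muscle, had 4875 to 6924 (median 5261) counts in WT and 2891 to 4767 (median 3501) in KO at 10 weeks, with no overlap. It was 1.49-fold higher in WT (log2 fold change 0.58 ± 0.12, adjusted *P* = 0.00153; 0.42 among the ICBR libraries and 0.74 among the Novogene libraries). The sites themselves differed for this gene, with a log2 difference of -0.33 for Novogene against ICBR. At single sites *Pfkm* was called at neither (adjusted *P* = 0.117 at ICBR and 0.0551 at Novogene), and *Hk2* at Novogene but not at ICBR (0.188). At 40 weeks *Hk2* had 5203, 5478, 5389, 5214, and 6052 counts in WT and 2597, 4767, 5087, 3149.8, and 4159 in KO. All WT libraries were above all KO libraries at this age too (log2 fold change 0.51 ± 0.13, adjusted *P* = 0.00487), and the call was lost with these 2 groups fitted alone (adjusted *P* = 0.0662).

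*Ldha* (chromosome 7, 46841475 to 46855627), whose subunit favors lactate formation, had 38958 to 53768 (median 47339.5) counts in WT and 26342 to 42616 (median 33484) in KO at 10 weeks. The groups overlapped and the difference was not called (log2 fold change 0.47 ± 0.16, adjusted *P* = 0.0585). At 40 weeks it had 42061, 34993, 39908, 43983, and 31993 counts in WT and 39485, 23611, 18812, 29106, and 24312 in KO. KO replicate 1 alone lay within the WT range, and *Ldha* was 1.46-fold higher in WT (log2 fold change 0.55 ± 0.17, adjusted *P* = 0.0195). The call was lost without WT replicate 4 (adjusted *P* = 0.0534) or KO replicate 3 (0.0739), or with these 2 groups fitted alone (0.0750). *Ldhb* (chromosome 6, 142490249 to 142507957), the isoform of slow fibers and heart, had 865 to 4543 (median 1475) counts in WT and 954 to 7729 (median 3965) in KO at 10 weeks, with wide overlap (log2 fold change -0.89 ± 0.47, adjusted *P* = 0.302). At 40 weeks the counts were 922, 4282, 1782, 1590.3, and 4259 in WT and 3960.5, 7949.7, 9144, 4529, and 8319 in KO, so 2 WT libraries reached into the KO range. *Ldhb* was 2.96-fold higher in KO (log2 fold change -1.57 ± 0.51, adjusted *P* = 0.0248). This call did not hold without WT replicate 1, 3, or 4, without the library labelled KO replicate 2, or without KO replicate 3 (adjusted *P* = 0.0926, 0.0532, 0.0590, 0.0528, and 0.0578).

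**Figure D1:**
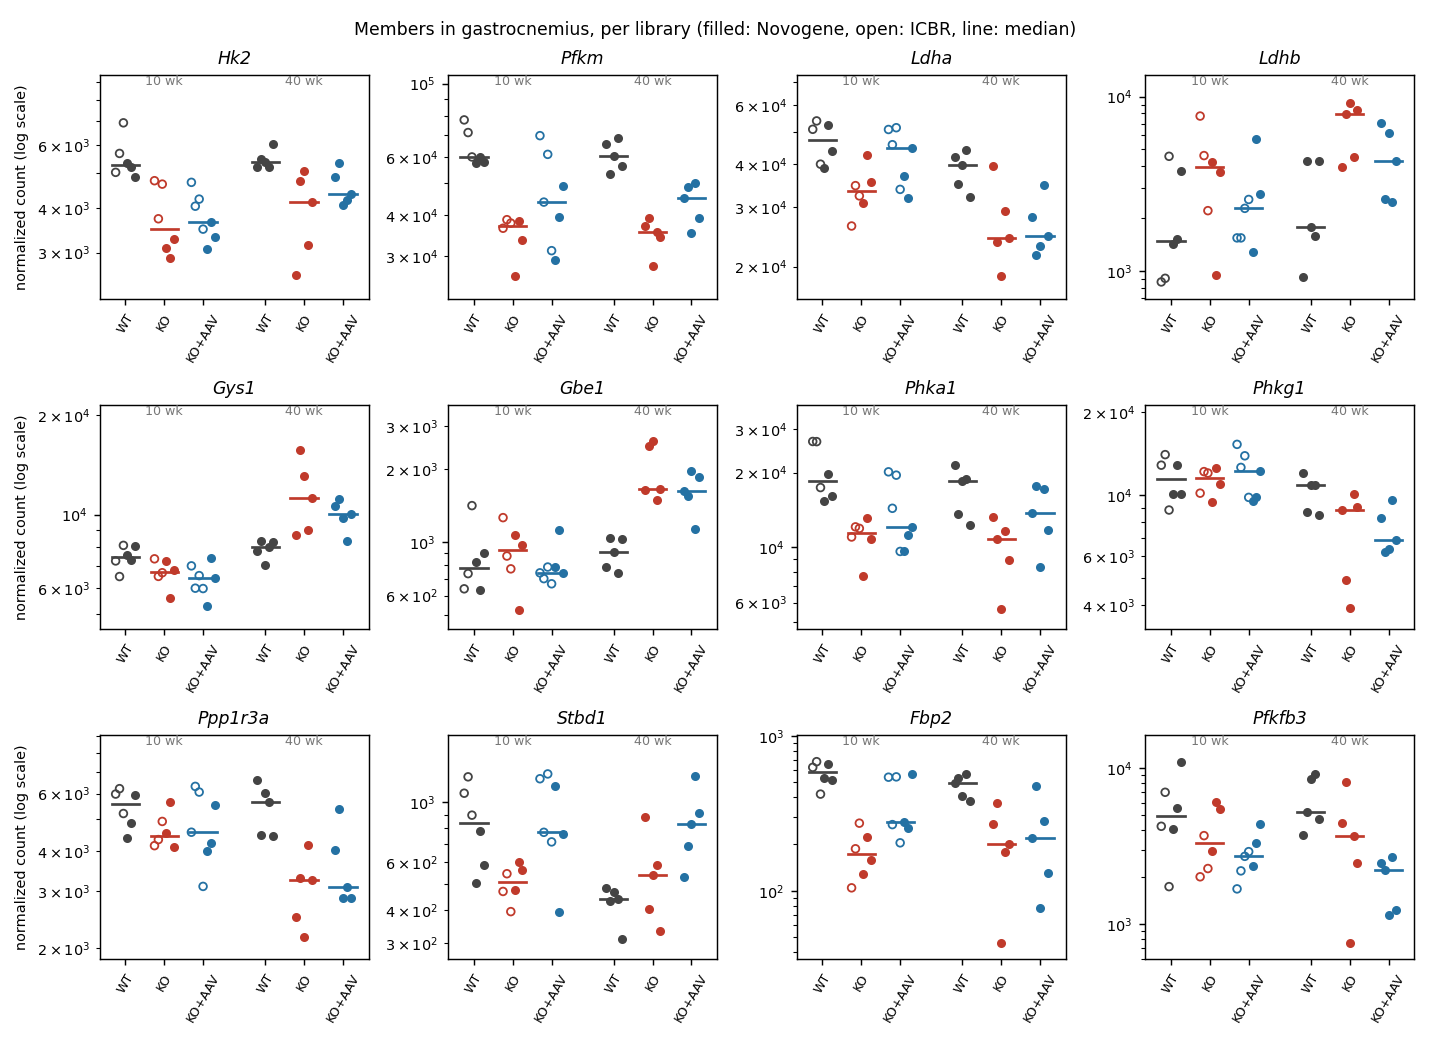
Normalized counts of 12 members in the 34 gastrocnemius libraries on a log scale, by genotype and age, with open points for ICBR, filled points for Novogene, and a line at the median of each group. The WT points of *Pfkm* and *Hk2* lie above all KO points at both ages, whereas *Gbe1* and *Gys1* are higher in KO at 40 weeks, with 1487 to 2613 *Gbe1* counts in KO and 746 to 1033 in WT.

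*Ldhb* moved with a list of slow and type IIA fiber genes across the libraries. The list held 8 genes (*Myh7*, *Myh2*, *Tnnt1*, *Tnni1*, *Tnnc1*, *Myl2*, *Myl3*, and *Atp2a2*). Of these, *Myh2* is the myosin of fast type IIA fibers and could make up most of the sum. In WT replicate 4 at 10 weeks it gave 70945.5 of 81070.1 counts, and *Myh7* gave 171. At 10 weeks the summed count was 12666 to 81070.1 (median 32667) in WT libraries and 10651 to 162959 (median 57127) in KO libraries. At 40 weeks it was 21894 to 85449.9 (median 32103) in WT libraries and 56155 to 264039 (median 96380.5) in KO libraries. None of the 8 was at 0 in a whole group. None of the 8 genes was called between WT and KO at either age, and their median log2 fold change at 40 weeks was -2.28. Of the 10 libraries highest in this sum, 8 were also among the 10 highest in *Ldhb*, and 8 of the 10 lowest were among the 10 lowest. The part of fiber type in the *Ldhb* difference was not tested.

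**Figure D2:**
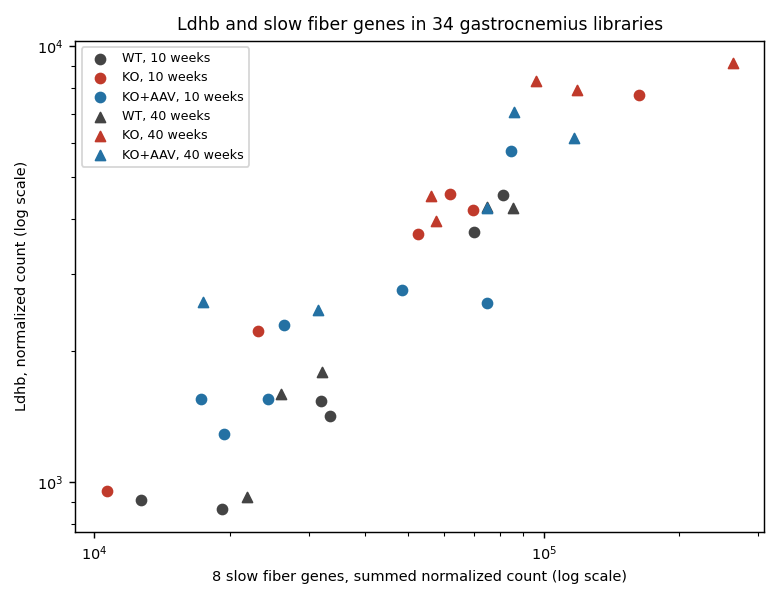
*Ldhb* against the summed normalized count of 8 slow and type IIA fiber genes in the 34 gastrocnemius libraries, both on log scales, with color for genotype and shape for age. Libraries high in this sum were mostly high in *Ldhb*, and 3 of the 10 libraries highest in the sum were 40-week KO libraries.

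Among glycogen genes, *Fbp2* (chromosome 13, 62836877 to 62858422), the muscle fructose-bisphosphatase that works against phosphofructokinase and serves glycogen synthesis from lactate, had the largest fold change of the members called at 10 weeks. At that age it had 420.4 to 681 (median 581) counts in WT and 104 to 273 (median 172) in KO. All WT libraries were above all KO libraries, by 3.32-fold (log2 fold change 1.73 ± 0.38, adjusted *P* = 0.00255; 1.68 among the ICBR libraries and 1.78 among the Novogene libraries). At 40 weeks WT had 492, 536, 411, 566, and 379.8 counts and KO 268, 367, 46.0, 177, and 201, again with no overlap (log2 fold change 1.43 ± 0.41, adjusted *P* = 0.0117). The lowest value belonged to KO replicate 3, and without it the call was lost (log2 fold change 0.95, adjusted *P* = 0.0597). *Phka1* (chromosome X, 102513975 to 102644246), the muscle alpha subunit of phosphorylase kinase, had 15304 to 26658 (median 18574) counts in WT and 7645 to 13127 (median 11474) in KO at 10 weeks. It was 1.80-fold higher in WT with no overlap (log2 fold change 0.85 ± 0.20, adjusted *P* = 0.00572; 0.99 among the ICBR libraries and 0.72 among the Novogene libraries). *Phka1* was called at neither site alone (adjusted *P* = 0.0714 at ICBR and 0.0755 at Novogene), and *Fbp2* at Novogene but not at ICBR (0.0521). At 40 weeks *Phka1* had 21495, 13595, 18571, 18909, and 12279 counts in WT and 13261, 10812, 5645, 11614, and 8919.8 in KO, where KO replicate 1 exceeded WT replicate 5 (log2 fold change 0.78 ± 0.22, adjusted *P* = 0.00991).

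*Phkg1* (chromosome 5, 129863421 to 129898549), the catalytic subunit of phosphorylase kinase in muscle, had 8817 to 13999 (median 11456) counts in WT and 9411 to 12489.7 (median 11493) in KO at 10 weeks, with no call (log2 fold change 0.02 ± 0.18, adjusted *P* = 0.975). At 40 weeks the counts were 12029, 8704, 10847, 10887, and 8455 in WT and 8855, 4912, 3885, 10111, and 9027 in KO, and the libraries labelled KO replicate 2 and 3 were below all others. It was higher in WT (log2 fold change 0.55 ± 0.19, adjusted *P* = 0.0370), but the log2 fold change without these 2 KO libraries together was 0.12 (adjusted *P* = 0.701). The call was also lost without the library labelled KO replicate 2 (0.129) or 3 (0.163), without WT replicate 1 (0.0960), 3 (0.0746), or 4 (0.0741), and with edgeR (0.0781) or DESeq2 (0.0617). Exons of *Phkg1* share 9.68% of their bases with *Sumf2* on the other strand. *Ppp1r3a* (chromosome 6, 14713977 to 14755274), the muscle subunit that targets protein phosphatase to glycogen, had 4378 to 6214 (median 5570.4) counts in WT and 4110.0 to 5671 (median 4439) in KO at 10 weeks (log2 fold change 0.23 ± 0.17, adjusted *P* = 0.517). At 40 weeks WT had 6620.0, 4473, 6035, 5664, and 4453 and KO 2504, 3284, 2175, 4156, and 3244. All WT libraries were then above all KO libraries, by 1.80-fold (log2 fold change 0.84 ± 0.19, adjusted *P* = 0.00111), and the call held under all 20 alternatives.

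*Gbe1* and *Gys1* were higher in KO than in WT at 40 weeks. *Gbe1* (chromosome 16, 70313949 to 70569716), the branching enzyme, had 632 to 1411 (median 781) counts in WT and 525 to 1258 (median 921) in KO at 10 weeks, which overlapped (log2 fold change -0.09 ± 0.19, adjusted *P* = 0.870). At 40 weeks WT had 790.2, 1033, 906, 746, and 1030.1 and KO 1630.1, 2488, 2613, 1487, and 1658. Every KO library exceeded every WT library, by 2.15-fold (log2 fold change -1.10 ± 0.21, adjusted *P* = 0.000236), and the call held in all 20 alternatives. *Gys1* (chromosome 7, 45434844 to 45456619), the muscle glycogen synthase, had 6494 to 8068 (median 7417) counts in WT and 5588 to 7347 (median 6725) in KO at 10 weeks (log2 fold change 0.16 ± 0.11, adjusted *P* = 0.493). At 40 weeks it had 7751, 8317, 7040.5, 7974, and 8281 in WT and 8651, 15645, 13066, 8973, and 11257 in KO, with no overlap and a 1.43-fold higher level in KO (log2 fold change -0.52 ± 0.12, adjusted *P* = 0.00214). The libraries labelled KO replicate 2 and 3 were the highest, and without both the log2 fold change was -0.28 (adjusted *P* = 0.0839). Leaving out the same pair ended the calls of *Phka1* (0.0975), *Ldha* (0.240), *Ldhb*, and *Phkg1*, and 5 of the 10 members were then called. Exons of *Gys1* share 6.47% of their bases with *Ruvbl2* on the other strand.

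*Stbd1* (chromosome 5, 92603041 to 92606579), which tethers glycogen to membranes, had 501 to 1242 (median 838) counts in WT and 394 to 601 (median 509) in KO at 10 weeks. It was not called (log2 fold change 0.68 ± 0.24, adjusted *P* = 0.0762), and the sites differed, with 1.19 among the ICBR libraries and 0.17 among the Novogene libraries. At 40 weeks it had 483, 432, 464, 438, and 313 counts in WT and 880.4, 401, 538, 585, and 335 in KO (log2 fold change -0.30 ± 0.26, adjusted *P* = 0.451). *Pfkfb3* (chromosome 2, 11471433 to 11554077), the PFKFB form with the strongest kinase activity, had 1744 to 11004 (median 4918) counts in WT and 2016 to 6061 (median 3322) in KO at 10 weeks (log2 fold change 0.49 ± 0.39, adjusted *P* = 0.557). At 40 weeks WT had 3715, 5263, 8584, 9223, and 4761 and KO 4445, 8170.0, 759, 3701, and 2477, and the KO libraries spanned more than the WT libraries (log2 fold change 0.97 ± 0.43, adjusted *P* = 0.0967). *Pfkfb1* and *Pfkfb4* had log2 fold changes of 0.15 and 0.02 at 10 weeks and -0.29 and 0.05 at 40 weeks, and neither was called.

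Several abundant enzymes were not called. *Gapdh*, the reference gene of the qPCR in the study, had log2 fold changes of 0.21 ± 0.13 at 10 weeks and -0.24 ± 0.14 at 40 weeks (adjusted *P* = 0.417 and 0.225), and the interval of the first, -0.05 to 0.46 at 95%, spans 0. *Aldoa* had 0.19 ± 0.18 and -0.06 ± 0.20, and *Pygm*, the phosphorylase of muscle, 0.27 ± 0.19 and 0.51 ± 0.21 (adjusted *P* = 0.491 and 0.0738). Over the 6 comparisons of genotypes in gastrocnemius, 13 of 34 members (38.2%) were called at least once and 21 in none, beside 28.1% of all 16199 genes called at least once. Of the 6 members with an E-box, 4 were among the 13.

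Other genes of the same pathways were tested too, and their counts stand beside the 4.26% higher and 3.74% lower of all genes at 10 weeks and the 12% and 11.5% at 40 weeks. Of 14 further genes of glycolysis and gluconeogenesis that were tested, 2 were higher in WT than in KO at 10 weeks, among them *Bpgm*, which makes bisphosphoglycerate (log2 fold change 0.84 ± 0.18, adjusted *P* = 0.00233), and 4 were higher and 2 lower at 40 weeks. Of 15 further glycogen genes, 2 were higher in WT at 10 weeks, among them *Pgm2l1*, a sugar phosphate mutase (log2 fold change 0.96 ± 0.20, adjusted *P* = 0.00136), and 3 were higher and 1 lower at 40 weeks. Of 15 genes of pyruvate and lactate handling, 3 were higher in WT and 1 lower at 10 weeks. Examples were *Mpc1*, a subunit of the mitochondrial pyruvate carrier (log2 fold change 0.71 ± 0.09, adjusted *P* = 3.03e-06), and *Slc16a3*, a lactate exporter of fast fibers (log2 fold change 1.10 ± 0.26, adjusted *P* = 0.00491). At 40 weeks 4 were higher and 5 lower in WT. The pyruvate dehydrogenase phosphatases were divided, with *Pdp1* higher (log2 fold change 1.04 ± 0.22, adjusted *P* = 0.000641) and *Pdp2* lower in WT (log2 fold change -1.26 ± 0.22, adjusted *P* = 5.79e-05).

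The comparison of KO+AAV with KO asked whether the members differed with the *Bmal1* vector. The paper reports BMAL1 protein in KO+AAV muscle at a fraction of the WT level, and *Arntl* counts were within or below the KO range. None of 34 was called with limma at either age, against 0.204% of all genes at 10 weeks (0.136% higher and 0.0679% lower) and 0.259% at 40 weeks, and none with edgeR or DESeq2. Without adjustment, 4 members (11.8%) at 10 weeks and 3 (8.82%) at 40 weeks had *P* under 0.05, beside 9.23% and 10.1% of all genes. No member's groups were apart, whereas this held for 0.574% of all genes at 10 weeks and 1.08% at 40 weeks. At 10 weeks, 16 of 17 glycolysis members had a higher fitted level in KO+AAV, with a median log2 fold change of 0.17, and 9 of 14 glycogen members (0.04), beside a median of 0.01 over all genes. At 40 weeks 6 of 17 glycolysis members were higher (-0.06) and 12 of 14 glycogen members (0.18).

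KO+AAV values of members that were called between WT and another genotype were as follows. *Stbd1* had 392 to 1274 (median 774) counts in KO+AAV at 10 weeks, mostly above the KO libraries, with 1 library below them (log2 fold change 0.72 ± 0.23, adjusted *P* = 0.278; 1.05 among the ICBR libraries and 0.37 among the Novogene libraries). *Fbp2* had 204 to 567 (median 278) counts, between KO and WT by median and overlapping both (log2 fold change 1.04 ± 0.37, adjusted *P* = 0.357; 1.02 among the ICBR libraries and 1.05 among the Novogene libraries). *Pfkm* had 29173 to 69551 (median 43735) counts in KO+AAV (log2 fold change 0.32 ± 0.14, adjusted *P* = 0.497) and *Ldha* 31820.4 to 51344 (median 44689.7) (log2 fold change 0.31 ± 0.15, adjusted *P* = 0.538), and both spread across the KO and WT ranges. *Hk2* had 3067 to 4717 (median 3647) counts, all below WT (log2 fold change 0.01 ± 0.12, adjusted *P* = 0.993). At 40 weeks *Stbd1* had 529, 688, 833, 1247, and 911 counts in KO+AAV (log2 fold change 0.64 ± 0.26, adjusted *P* = 0.394), *Phka1* 13692, 17705, 8384, 17099, and 11777 (log2 fold change 0.46 ± 0.22, adjusted *P* = 0.488), and *Fbp2* 220.0, 474, 77.6, 282, and 129 (log2 fold change 0.17 ± 0.41, adjusted *P* = 0.939). *Pfkfb1* was the member with the smallest adjusted *P* at this age (log2 fold change -0.53 ± 0.21, adjusted *P* = 0.361). These intervals are wide. For *Fbp2* at 10 weeks the log2 difference lay between 0.32 and 1.75 at 95% before adjustment, and for *Hk2* between -0.22 and 0.24.

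**Figure D3:**
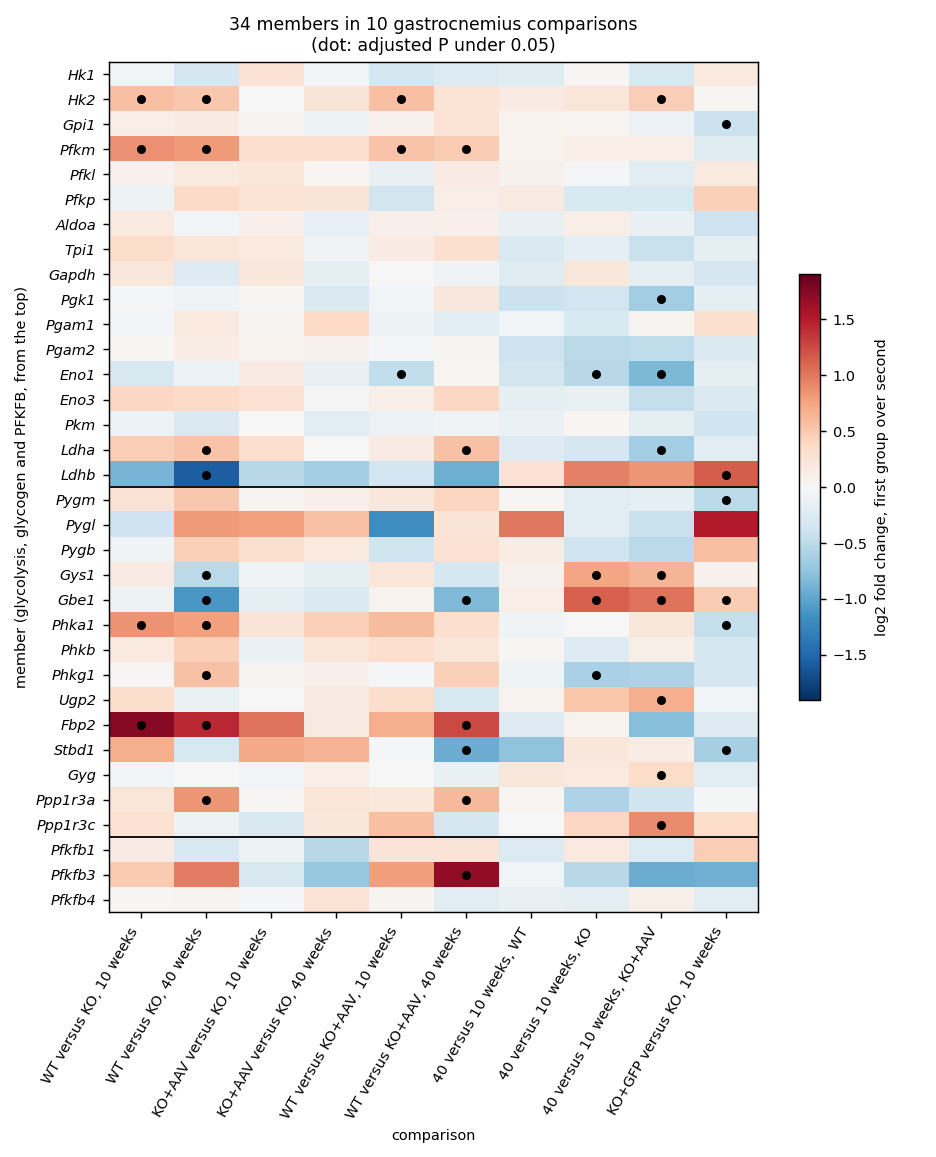
Log2 fold changes of the 34 tested members (rows) in 10 gastrocnemius comparisons (columns), first group over second, with red for higher and blue for lower in the first group and a dot where adjusted *P* was under 0.05. Dots lie in the columns of WT versus KO (4 at 10 weeks and 10 at 40 weeks) and in none of the KO+AAV versus KO columns. The columns of WT versus KO+AAV, of age in KO and in KO+AAV, and of KO+GFP versus KO also hold dots.

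WT versus KO+AAV used the same WT libraries as the comparison with KO. At 10 weeks 3 of 34 members were called against 5.15% of all genes (2.94% higher and 2.21% lower): *Hk2* (log2 fold change 0.57 ± 0.12, adjusted *P* = 0.00204; 0.51 among the ICBR libraries and 0.62 among the Novogene libraries) and *Pfkm* (log2 fold change 0.55 ± 0.14, adjusted *P* = 0.0200; 0.50 among the ICBR libraries and 0.61 among the Novogene libraries) were higher in WT, and *Eno1*, the enolase of most nonmuscle tissues, was lower (log2 fold change -0.47 ± 0.14, adjusted *P* = 0.0372; -0.64 among the ICBR libraries and -0.26 among the Novogene libraries). Groups did not overlap for *Hk2*, with 3067 to 4717 counts in KO+AAV and 4875 to 6924 in WT, as for 2.86% of all genes. The *Pfkm* call was lost without WT replicate 2 (adjusted *P* = 0.0572) or KO+AAV replicate 4 (0.0566) or 5 (0.0652), and at either site alone (0.370 at ICBR and 0.256 at Novogene). *Hk2* was not called at ICBR alone (0.114), nor *Eno1* at Novogene alone (0.591). The *Eno1* call was also lost without any of WT replicates 2, 3, 4, 5, and 7 and KO+AAV replicates 2 to 5 (0.0502 to 0.117). At 40 weeks 7 were called against 12.5% of all genes (6.05% higher and 6.41% lower). *Gbe1* was higher in KO+AAV, which had 1616, 1547, 1967, 1132, and 1851 counts, all above WT (log2 fold change -0.84 ± 0.21, adjusted *P* = 0.00721). *Pfkfb3* had 2467, 2241, 1145, 2689, and 1240.5 counts in KO+AAV, all below WT, and was 3.22-fold higher in WT (log2 fold change 1.69 ± 0.43, adjusted *P* = 0.00725). *Stbd1* was 1.92-fold higher in KO+AAV with no overlap (log2 fold change -0.94 ± 0.26, adjusted *P* = 0.0160), but not called without KO+AAV replicate 4 (0.0558). The calls of *Gbe1* and *Pfkfb3* held in all 19 alternatives.

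The other 4 called members at 40 weeks, *Ppp1r3a* (log2 fold change 0.61 ± 0.19, adjusted *P* = 0.0262), *Ldha* (log2 fold change 0.56 ± 0.17, adjusted *P* = 0.0278), *Fbp2* (log2 fold change 1.25 ± 0.41, adjusted *P* = 0.0421), and *Pfkm* (log2 fold change 0.48 ± 0.16, adjusted *P* = 0.0486), were higher in WT. KO+AAV libraries had 4029, 5360.0, 2851, 3095, and 2854 counts of *Ppp1r3a*, 28003, 21608, 22928, 34810.4, and 24619.9 of *Ldha*, and 45082, 48432, 35180.2, 50088, and 39215 of *Pfkm*. All *Pfkm* values were below WT, and those of *Ppp1r3a* and *Ldha* overlapped. The call was lost without WT replicate 1, 3, or 4 or KO+AAV replicate 3, 4, or 5 for *Ppp1r3a* (adjusted *P* = 0.0565 to 0.0822), and without WT replicate 1, 3, or 4 or KO+AAV replicate 2, 3, or 5 for *Ldha* (0.0581 to 0.0788). For *Fbp2* it was lost without any of WT replicates 1 to 4 or KO+AAV replicates 1, 3, and 5 (0.0553 to 0.162), and with edgeR (0.0825) or DESeq2 (0.0575), and for *Pfkm* without WT replicate 1, 3, 4, or 5 or KO+AAV replicate 1, 3, or 5 (0.0569 to 0.135). *Gys1* had 10646, 11104, 9764, 8338, and 10011 counts in KO+AAV, all above WT, and was not called (log2 fold change -0.34 ± 0.12, adjusted *P* = 0.0628). Groups did not overlap for 5 members in all and 11.7% of all genes.

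Age was compared within each genotype. In WT no member was called between 40 and 10 weeks (limma, 4 at unadjusted *P* under 0.05, beside 7.46% of all genes, and 0 with edgeR or DESeq2), against 0.148% of all genes. In KO 4 members were called against 8.31% of all genes (4.05% higher and 4.26% lower): *Gys1* (log2 fold change 0.76 ± 0.12, adjusted *P* = 0.000496) and *Gbe1* (log2 fold change 1.14 ± 0.22, adjusted *P* = 0.00173) rose, and *Eno1* (log2 fold change -0.53 ± 0.16, adjusted *P* = 0.0362) and *Phkg1* (log2 fold change -0.62 ± 0.20, adjusted *P* = 0.0484) fell. The *Gys1* libraries at 40 weeks were all above those at 10 weeks, which also held for *Gbe1*. In KO+AAV 9 were called against 8.53% of all genes (4.67% higher and 3.86% lower). On the synthetic side, *Gys1* (log2 fold change 0.65 ± 0.12, adjusted *P* = 0.000865), *Gbe1* (log2 fold change 1.04 ± 0.21, adjusted *P* = 0.00220), *Ppp1r3c*, a further glycogen-targeting subunit (log2 fold change 0.90 ± 0.23, adjusted *P* = 0.0135), *Ugp2* (log2 fold change 0.69 ± 0.21, adjusted *P* = 0.0357), and the glycogenin gene *Gyg* (log2 fold change 0.35 ± 0.11, adjusted *P* = 0.0396) rose, as did *Hk2* (log2 fold change 0.47 ± 0.13, adjusted *P* = 0.0258). *Eno1* (log2 fold change -0.85 ± 0.16, adjusted *P* = 0.000750), the phosphoglycerate kinase gene *Pgk1* (log2 fold change -0.66 ± 0.15, adjusted *P* = 0.00610), and *Ldha* (log2 fold change -0.64 ± 0.17, adjusted *P* = 0.0179) fell. Groups did not overlap for 6 members with age in WT, 3 with age in KO, and 4 with age in KO+AAV, and for 2.64%, 4.94%, and 5.88% of all genes. All 40-week libraries were from Novogene, and among Novogene libraries alone the log2 fold changes were 0.79 for *Gys1* and 1.23 for *Gbe1* in KO and 0.66 and 0.87 in KO+AAV. These calls and that of *Eno1* in KO+AAV held at Novogene alone, and the others did not, namely *Eno1* (adjusted *P* = 0.0571) and *Phkg1* (0.127) in KO and *Ppp1r3c* (0.0675), *Pgk1* (0.0777), *Gyg* (0.0853), *Hk2* (0.132), *Ldha* (0.172), and *Ugp2* (0.192) in KO+AAV. Without the site term *Hk2* had a log2 fold change of 0.28 in KO+AAV (adjusted *P* = 0.159).

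Some of the age calls rested on single libraries. In KO, *Eno1* was not called without replicate 5, 6, or 7 of 10 weeks or replicate 1 or the library labelled replicate 2 of 40 weeks (adjusted *P* = 0.0638 to 0.128), nor *Phkg1* without replicate 2, 3, 5, 6, or 7 of 10 weeks or the libraries labelled replicate 2 or 3 of 40 weeks (0.0660 to 0.181). Without the latter pair together *Gbe1* was not called (0.0560), whereas *Gys1* was (log2 fold change 0.52, adjusted *P* = 0.0165). In KO+AAV, calls were lost without replicate 7 of 10 weeks or 2 of 40 weeks for *Ldha* (0.0503 to 0.0677), without replicate 5 or 7 of 10 weeks or 1 or 2 of 40 weeks for *Hk2* (0.0504 to 0.0937), without replicate 5 or 6 of 10 weeks or 2 or 5 of 40 weeks for *Ugp2* (up to 0.168), and without replicate 5, 6, or 7 of 10 weeks or 2 or 5 of 40 weeks for *Gyg* (0.0553 to 0.175). The test of the change in the WT against KO difference from 10 to 40 weeks called no member with limma, against 0.37% of all genes. *Gys1* had the smallest adjusted *P* (difference of log2 fold changes -0.67 ± 0.16, adjusted *P* = 0.0559), followed by *Gbe1* (-1.01 ± 0.28, 0.104). Adjusted *P* for the same terms with DESeq2 was 0.00788 and 0.0387, and with edgeR 0.0550 and 0.106. For this change DESeq2 called 1.27% of all genes and edgeR 0.241%. All of these values include the libraries labelled KO replicate 2 and 3 of 40 weeks, the highest KO libraries in *Gys1* and *Gbe1*. The corresponding term for KO+AAV against KO called no member by any of the 3 tools and 0.00617% of all genes.

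The GFP experiment asked what the vector did without *Bmal1*. It compared 3 with 3 libraries in a table of its own size factors, so its levels cannot be set beside those above. Of 34 members, 6 were called against 3.09% of all genes (1.83% higher and 1.26% lower), and the 2 groups did not overlap for 22 members and 23.5% of all genes. *Ldhb* was higher in KO+GFP, with 2382, 2141, and 2252 counts against 1300.3, 1100.2, and 742 (log2 fold change 1.14 ± 0.16, adjusted *P* = 0.00269). *Gbe1* was higher too, with 509, 413, and 451 against 312, 324, and 341 (log2 fold change 0.49 ± 0.10, adjusted *P* = 0.0258). Lower in KO+GFP were *Phka1*, with 5116, 4201, and 4559 against 5892, 6454, and 6589 (log2 fold change -0.45 ± 0.09, adjusted *P* = 0.0240), and *Stbd1*, with 189, 169, and 170.1 against 255, 241, and 331 (log2 fold change -0.63 ± 0.13, adjusted *P* = 0.0246). *Gpi1*, glucose phosphate isomerase, had 6219, 6161, and 6352 against 7636, 9262, and 8044 (log2 fold change -0.41 ± 0.09, adjusted *P* = 0.0339), and *Pygm* had 51105, 43931, and 47275 against 62194, 72472, and 67373 (log2 fold change -0.51 ± 0.12, adjusted *P* = 0.0466). All 6 were without overlap. The median log2 fold change was -0.19 for glycolysis and -0.13 for glycogen members, and that of all genes is not reported here. At unadjusted *P* under 0.05 (limma) there were 21 of 34 members (61.8%), beside 18.7% of all genes. DESeq2 called 9 members (3.72% of all genes) and edgeR 8 (3.2%).

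Markers moved with the GFP groups as well. The sum of slow and type IIA fiber genes was 36274 to 37264 (median 37057) in KO+GFP and 7256 to 17185 (median 9537) in the controls. All 8 genes of that list were higher without overlap, 6 of them called. Of 8 macrophage genes 6 were called higher (sum 599.9 to 872 (median 740.2) against 254 to 384 (median 259)), and of 5 Schwann cell genes 3 were called lower (sum 388 to 474 (median 439.7) against 1002 to 1167 (median 1099)). The part of these in the 6 calls was not tested. The call of *Ldhb* held with each library left out. The call of *Gbe1* was lost without KO+GFP replicate 1 or 3 or control replicate 2 (adjusted *P* = 0.0636 to 0.134), of *Stbd1* without KO+GFP replicate 2 or 3 or control replicate 3 (0.0716 to 0.140), and of *Phka1* without KO+GFP replicate 2 or 3 or control replicate 2 or 3 (0.0660 to 0.158). For *Gpi1* (0.0566 to 0.170) and *Pygm* (0.0759 to 0.238), leaving out control replicate 1 alone kept the call.

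Several steps are served by isoenzymes, so the share of each isoform in the reads per length of its step was computed for 8 enzymes. In gastrocnemius the muscle forms took nearly the whole of most steps. In 40-week KO muscle the median share was 97.2% for *Hk2*, 99.7% for *Pfkm*, 99.6% for *Pgam2*, 99.5% for *Eno3*, and 99.9% for *Pygm*. Lactate dehydrogenase and PFKFB were mixed, with 58.5% for *Ldha* and 54.1% for *Pfkfb3*. Shares were compared between genotypes by 48 exact permutation tests (two-sided, labels exchanged within sites), none of which had an adjusted *P* under 0.05, while 10 had an unadjusted *P* under 0.05. The smallest *P* these tests allow was 0.00143 to 0.00794 by comparison. No test could thus pass the adjustment over 48 alone, and the lack of calls says little. In WT against KO at 10 weeks, the shares of *Hk2* (98.2% ± 0.359 against 97.2% ± 0.754, SD, n = 6 each), *Pfkm* (99.8% ± 0.0404 against 99.7% ± 0.102), and *Eno3* (99.6% ± 0.0527 against 99.3% ± 0.163) gave an exact *P* = 0.005. This is the smallest that 400 arrangements allow, and the adjusted *P* was 0.0800 for each. At 40 weeks *Ldha* made up 87.5% ± 8.10 against 64.8% ± 13.7 of lactate dehydrogenase reads per length in WT and KO (SD, n = 5 each; exact *P* = 0.0317, adjusted *P* = 0.190).

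**Figure D4:**
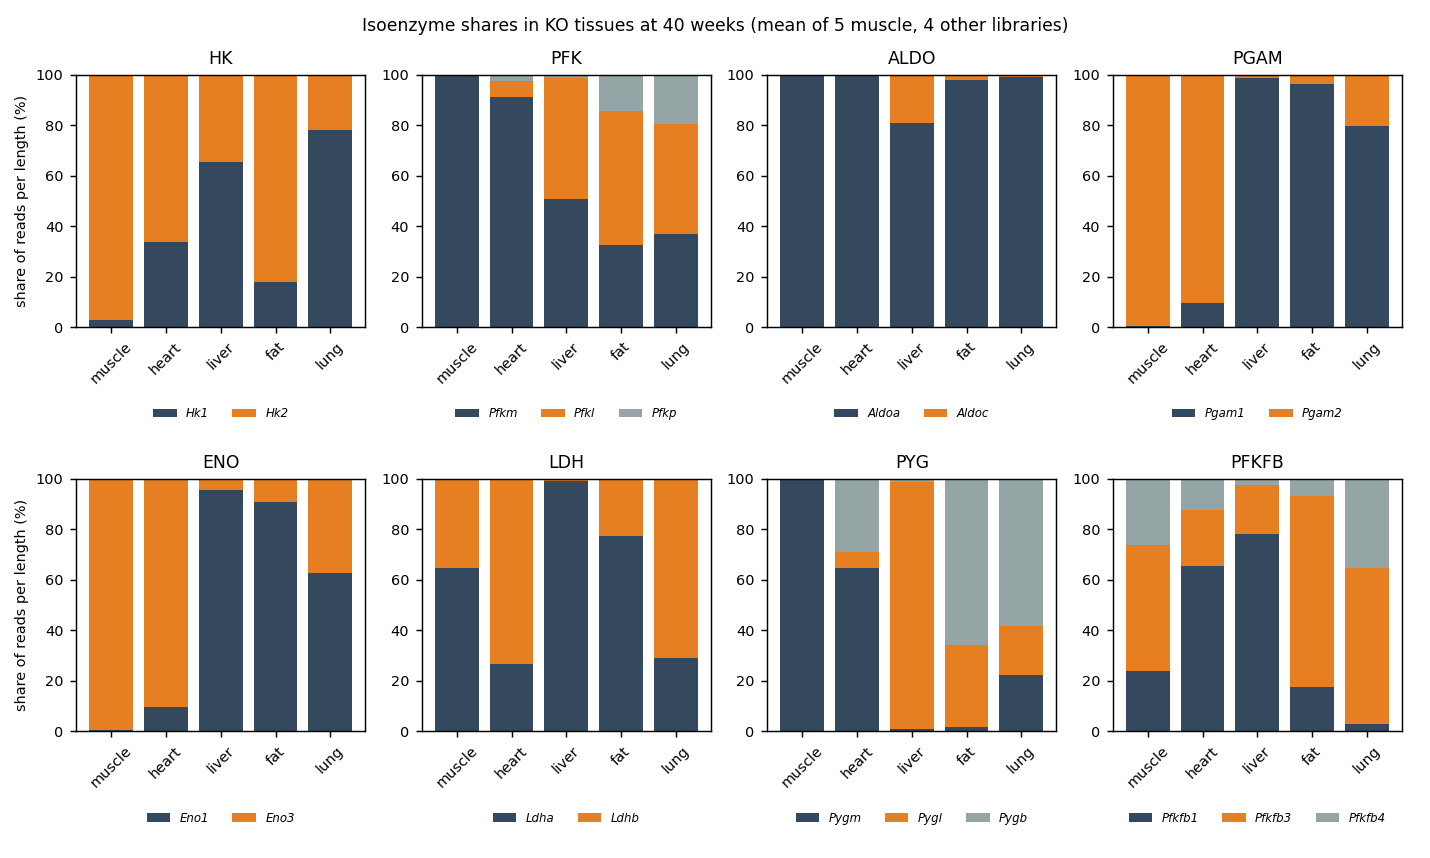
Mean share in percent of each isoform in the reads per length of its step, in muscle (5 KO libraries) and heart, liver, white fat, and lung (4 KO libraries each) at 40 weeks. Muscle used the *Hk2*, *Pfkm*, *Pgam2*, *Eno3*, and *Pygm* forms almost alone, and liver was mostly *Pgam1*, *Eno1*, *Ldha*, and *Pygl*. The means of heart and white fat include the replicate 2 libraries that stood apart, with 25.0% *Pygl* in that heart library against 0.220% to 0.283% in the other hearts, and 13.2% *Pgam2* in that fat library against 0.125% to 0.620%.

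Other tissues carried other sets. Heart had 24.1% *Ldha* by median in KO, against 99.0% in liver, 83.5% in white fat, and 29.4% in lung. The share of *Pygm* was 65.6% in heart, 0.686% in liver, 1.29% in white fat, and 22.9% in lung. *Hk2* made up 67.2% of its pair in heart and 80.9% in white fat. Per length, liver had 106 RPKM of *Pygl*, the liver phosphorylase, and 48.8 of *Stbd1*, and white fat had 70.1 of *Pfkfb3* and 117 of *Pygb*. These tissues were sequenced at ICBR and the 40-week muscle at Novogene, so tissue and site cannot be told apart in the comparison with 40-week muscle. The KO muscle libraries of 10 weeks from ICBR had shares of 99.9% for *Pygm*, 99.6% to 99.8% for *Pgam2*, and 99.1% to 99.4% for *Eno3*. The part of site was not tested.

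In liver, heart, and white fat no member was called between KO+AAV and KO with limma, edgeR, or DESeq2, nor was any other gene with limma (0%). At unadjusted *P* under 0.05 there was 1 member in liver (*Pfkfb4*, log2 fold change -0.99 ± 0.35), 1 in heart, and 0 in white fat, beside 3.32%, 1.28%, and 1.04% of all genes. The heart gene was *Ppp1r3c*, with 6516, 5784, 7441, and 7106 counts in KO and 9735, 7449, 10093, and 8956 in KO+AAV, narrowly apart (log2 fold change 0.43 ± 0.13, adjusted *P* = 0.862), as were 1.85% of all genes. KO heart replicate 2 held 859141 counts of *Alb*, a liver gene, against 153 to 216 in the other KO hearts, and had 3608 counts of *Stbd1* where these had 352 to 909.6. KO white fat replicate 2 held 748500 counts of *Gpx5*, an epididymal gene, and 11645 counts of *Ldha* where the other KO fat libraries had 26562 to 48350.5.

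In lung no member was called with limma either, against 0.0237% of all genes, while DESeq2 called 7 (2.98% of all genes), and edgeR 0 (0.019%). At unadjusted *P* under 0.05 there were 10 of 35 members and 11.9% of all 21072 genes. For 5 muscle-type members every KO+AAV library was above every KO library, as for 6.77% of all genes in either direction. *Pfkm* had 1289, 1736, 1718, and 1813 counts in KO and 3314, 2191, 4026, and 4589.8 in KO+AAV lung (log2 fold change 1.07 ± 0.21, adjusted *P* = 0.114). *Eno3* had 997, 1376, 1432, and 1736 and 3945, 2244, 4610.2, and 5732 (log2 fold change 1.52 ± 0.27, adjusted *P* = 0.0976). *Pygm* had 891, 1376, 1461, and 1835 and 3879.6, 2017, 4605, and 5042 (log2 fold change 1.45 ± 0.30, adjusted *P* = 0.114). *Phkg1* had 48.3, 177, 148, and 173 and 759, 279, 947, and 1026 (log2 fold change 2.46 ± 0.50, adjusted *P* = 0.114), and *Ppp1r3a* 354, 269.5, 312, and 266 and 359, 488, 670.2, and 808 (log2 fold change 0.89 ± 0.23, adjusted *P* = 0.186). The summed count of 6 cardiomyocyte genes was 4361 to 44458 (median 29992) in KO lung and 67339 to 237049 (median 179226) in KO+AAV lung, and 5 of the 6 did not overlap. That of 8 skeletal muscle genes was 335 to 1633 (median 816) and 1450.1 to 6186 (median 3244). No gene of either list was called, and the part of heart muscle in the lung samples was not tested. Without KO+AAV replicate 2, 4 members were called. The share of all genes called in that fit is not reported here, so this count is no result about the members alone.

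**Figure D5:**
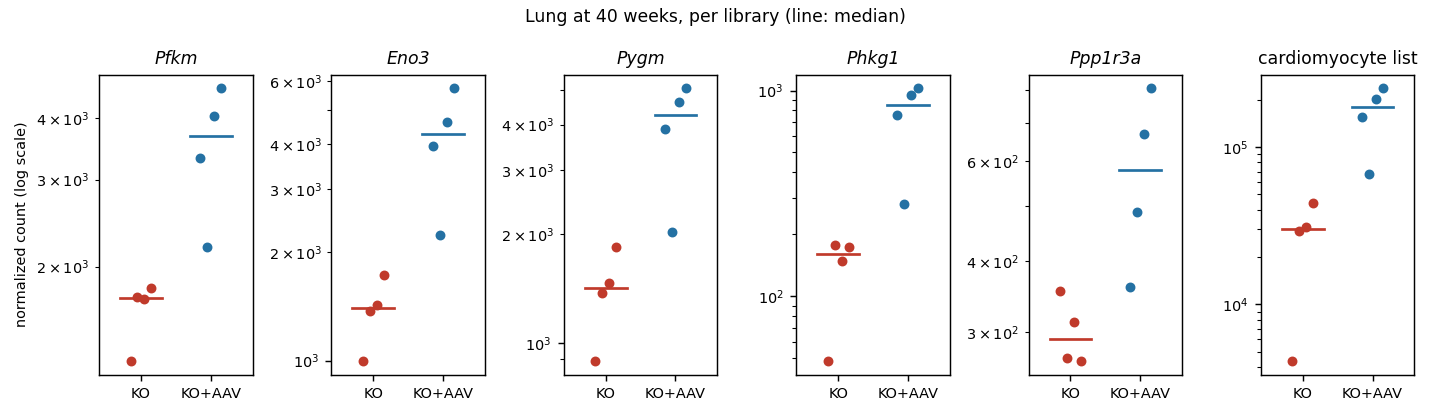
Normalized counts, on log scales, of 5 members and of the summed cardiomyocyte list in 4 KO and 4 KO+AAV lungs at 40 weeks, with a line at each median. All KO+AAV points lie above all KO points in each panel, and KO+AAV replicate 2 is the lowest KO+AAV library in the panels of *Pfkm*, *Eno3*, *Pygm*, and *Phkg1*.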

How the data were processed

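Poly(A) RNA-Seq was read in 72 libraries. The deposited values are a signal: read counts per gene that the authors divided by DESeq2 size factors, with HISAT2, HTSeq, and GRCm38 (mm10) named in the submitters' processing notes. The annotation release and the strand setting are not given in the sources used here. Whole reads could be recovered from all values (100%, tolerance 0.01 reads). Main gastrocnemius libraries held 32563431 to 41733282 reads (ICBR) or 9325122 to 13610317 (Novogene), GFP libraries 6754312 to 8515400, and libraries of other tissues 36903079 to 50755829, and counting error is larger in the shallower ones.

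Genes with a mean normalized count above 5 were tested with limma (3.58.1, R 4.3.3) on log2(normalized count + 1), a scale that understates changes of low genes. The standard error follows ±. *P* values were adjusted by Benjamini-Hochberg over all genes tested, and those under 0.05 were called. The 34 main gastrocnemius libraries shared 1 model with a site term, and the GFP experiment and each other tissue had models of their own, 16 comparisons in all. Fold is 2 raised to the log2 fold change. Shares of isoenzymes were compared by exact permutation. edgeR (4.0.16) and DESeq2 (1.42.0) on the recovered reads, TMM, other filters and pseudocounts, single sites, a replicate block, and each library left out were alternatives, and the scripts were tested on simulated data. Members and gene lists were chosen with earlier results of these data known. Values in every library are given for 12 of the 13 members called in a comparison of genotypes, those with the smallest adjusted *P*, and at most 2 genes are named per further list. Some genes of these lists are not reported here. The labels number the replicates without saying that each came from its own mouse, so *P* values measure the spread between these libraries, which may be technical. Promoters are from RefSeq (GRCm38.p6) and gene positions from GENCODE vM21.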

Additional observations from a re-analysis of the deposited data

Results flagged for a closer look

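Values of the 12 named members and the shares of *Hk2*, *Pfkm*, *Eno3*, *Ldha*, and *Pfkfb1* were screened in each gastrocnemius group of 5 to 7 libraries for one that lay far from the others by Dixon's criterion. Of 102 groups of values 6 were picked out, and chance alone picks out about 1 in 20. KO+AAV replicate 6 at 10 weeks accounted for 3 of them. It had 1123 normalized counts of *Gbe1*, where the other 6 libraries had 671 to 789.9. It had 5734 counts of *Ldhb* against 1290 to 2757 in the others, and its *Ldha* share of lactate dehydrogenase reads per length was 72.5% against 86.2% to 94.0%. KO replicate 5 at 10 weeks had the lowest shares of *Hk2* (95.8% against 97.1% to 97.9%) and *Pfkm* (99.5% against 99.7% to 99.8%). WT replicate 4 at 10 weeks had 1411 counts of *Gbe1*, where the other WT libraries had 632 to 902.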

How the results depend on the processing

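Of the counts of called members under alternatives, 279 stayed within 1.5 times the main count or on its side, 13 were higher, and 28 lower, and no named member turned direction. Of the called members, 685 values kept their call and 150 lost it. For WT versus KO at 10 weeks (4 called), the 2 groups alone gave 8, ICBR alone 1 (*Stbd1*, none of the 4), Novogene alone 2 (*Hk2* and *Fbp2*), and leave-one-out 4 to 5. At 40 weeks (10 called) leaving out the libraries labelled KO replicate 2 and 3 together, chosen after seeing the data, gave 5, and leave-one-out 7 to 11. For WT versus KO+AAV at 10 weeks (3 called), DESeq2 gave 6 (8.59% of all genes), the 2 groups alone 1, each site alone 1, and leave-one-out 1 to 5. At 40 weeks (7 called) no filter gave 4 and leave-one-out 3 to 6. For age in KO (4 called), no filter gave 2, no site term 7, Novogene alone 2, leaving out the libraries labelled 40-week KO replicate 2 and 3 gave 1, and leave-one-out 2 to 6. For age in KO+AAV (9 called), Novogene alone gave 3 and leave-one-out 5 to 11. The change of WT versus KO with age (0 called) gave 1 with TMM and 2 with DESeq2 (1.27% of all genes). For GFP (6 called) leave-one-out gave 1 to 7. For lung (0 called) DESeq2 gave 7 (2.98% of all genes) and leave-one-out 0 to 4, the 4 without KO+AAV replicate 2. For shares of isoenzymes (0 called) leave-one-out gave 0 to 5, the 5 without any one of KO+AAV replicates 1 to 4 at 10 weeks. The cause of these changes was not tested, beyond that single sites and leave-one-out use fewer libraries. Apart from DESeq2, the share of all genes called under each alternative is not reported here. The counts thus do not tell a change of the members from one of all genes.

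In no tissue was the correlation of same-numbered deviations over 0.1 in every pair, so the numbers were not taken to pair the libraries. It was over 0.1 in 6 of 17 gastrocnemius pairs at 10 weeks, 3 of 15 at 40 weeks, 0 of 3 for GFP, and of 4 pairs each in 0 for liver, 1 for heart, 3 for white fat (median 0.44 against -0.22 for other pairs), and 2 for lung. With the replicate block the counts were 5 and 13 for WT versus KO at 10 and 40 weeks, 4 and 8 for WT versus KO+AAV, 5 for GFP (*Pygm* lost, adjusted *P* = 0.0772), 0 in each other tissue, and 1 for the change of WT versus KO with age. These counts, too, stand without the share of all genes called with the block. No paired analysis was possible because the block was set within each age, for the comparisons of age. Novogene libraries were shallower than ICBR libraries, and low members such as *Pfkp* and *Pygl* rest on few reads there.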

Other observations

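A second gene identifier also carries the symbol *Aldoa* (ENSMUSG00000114515) and was not among the members. Its level differed between the sequencing sites and, among Novogene libraries, between WT and KO. At 10 weeks it had 9.45 to 22.7 normalized counts (median 13.1) in the 10 ICBR gastrocnemius libraries and 530 to 1723 (median 1108) in the 9 Novogene libraries, and the 15 Novogene libraries at 40 weeks had 174 to 2077 (median 766). Within Novogene, WT had 1497, 1723, and 1579 counts and KO 530, 1241, and 1026 at 10 weeks. At 40 weeks the Novogene WT libraries had 1205 to 2077 counts and the KO libraries 174 to 766. In the ICBR libraries WT (10.8 to 13.1) and KO (9.45 to 13.9) overlapped. The difference by genotype was not tested. Among the members themselves, Novogene against ICBR differed at an adjusted *P* under 0.05 (limma, site term) for *Hk2* (log2 difference -0.33), *Pfkp* (0.61), *Pkm* (-0.40), and *Gapdh* (0.53).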
